A study of Caenorhabditis elegans with 2 samples.

Results

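The twk genes of the nematode Caenorhabditis elegans encode potassium channels of the tandem-pore family. All rows of the deposited RPKM table whose gene name is twk followed by a number were taken. This gave 44 genes among 19874 genes analysed, and these were all 44 genes with such a symbol in the WBcel235 annotation. Total RNA of mixed-stage worms, cultured at 20 °C on OP50 bacteria, had been sequenced. The 2 samples, replicates 1 and 2, form 1 group. Both carried daf-2(e1370) in the gene for the insulin receptor homologue and daf-12(m20) in the gene for a steroid-type nuclear receptor. Other genotypes were not analysed here, so no level below shows an effect of either allele. Whether the replicates were grown separately is not stated, so the spread between them may be technical.

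Each subunit of a tandem-pore channel carries a pair of pore-forming loops, and a pair of subunits makes 1 channel. Such channels are open at rest and let potassium leak out of the cell, which holds the membrane potential negative and lowers excitability. In C. elegans they are best known from muscle and neurons, where gain-of-function alleles disturb movement and egg laying. Protein sequences were not used here, so membership rests on the gene names.

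Expression is given as RPKM, reads scaled to gene length and library size, so genes of different length can be set side by side. This assumes even coverage along each gene, which was not tested. From the steps between low values, the depth was estimated at 10560000 reads for replicate 1 and 14650000 reads for replicate 2. Estimated read numbers of a gene follow from these depths and its coding length, and a count of 3 reads was set as the floor. All intervals are exact 95% intervals and cover counting error only. The samples are whole animals, so fewer cells of a type and less RNA per cell cannot be told apart. Markers of several tissues were at or above 1 RPKM, a level that 72.0% of all genes reached. All 8 body wall muscle markers, all 8 neuron markers, all 5 intestine markers and all 4 markers each of pharyngeal muscle, epidermis and germ line had mean levels of 1 RPKM or more, as had 3 of 4 sperm markers (not spe-9).

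As a family the twk genes were low, with 6 members well above the others. The median of the 44 member means was 2.07 RPKM, against a median of 6.17 RPKM over all genes. Replicate 1 had a median of 1.84 RPKM and replicate 2 of 2.09 RPKM. A mean of at least 1 RPKM was reached by 29 members, or 65.9%, against 72.0% of all genes. A mean of at least 10 RPKM was reached by 6 members, or 13.6%, against 42.0% of all genes. The means ran over a wide range, with the highest at 24.25 RPKM and the lowest at 0.03 RPKM. The twk share of the summed RPKM of all genes was 0.0190% for replicate 1 and 0.0182% for replicate 2, from about 3120 and 4244 reads.

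**Figure D1:**
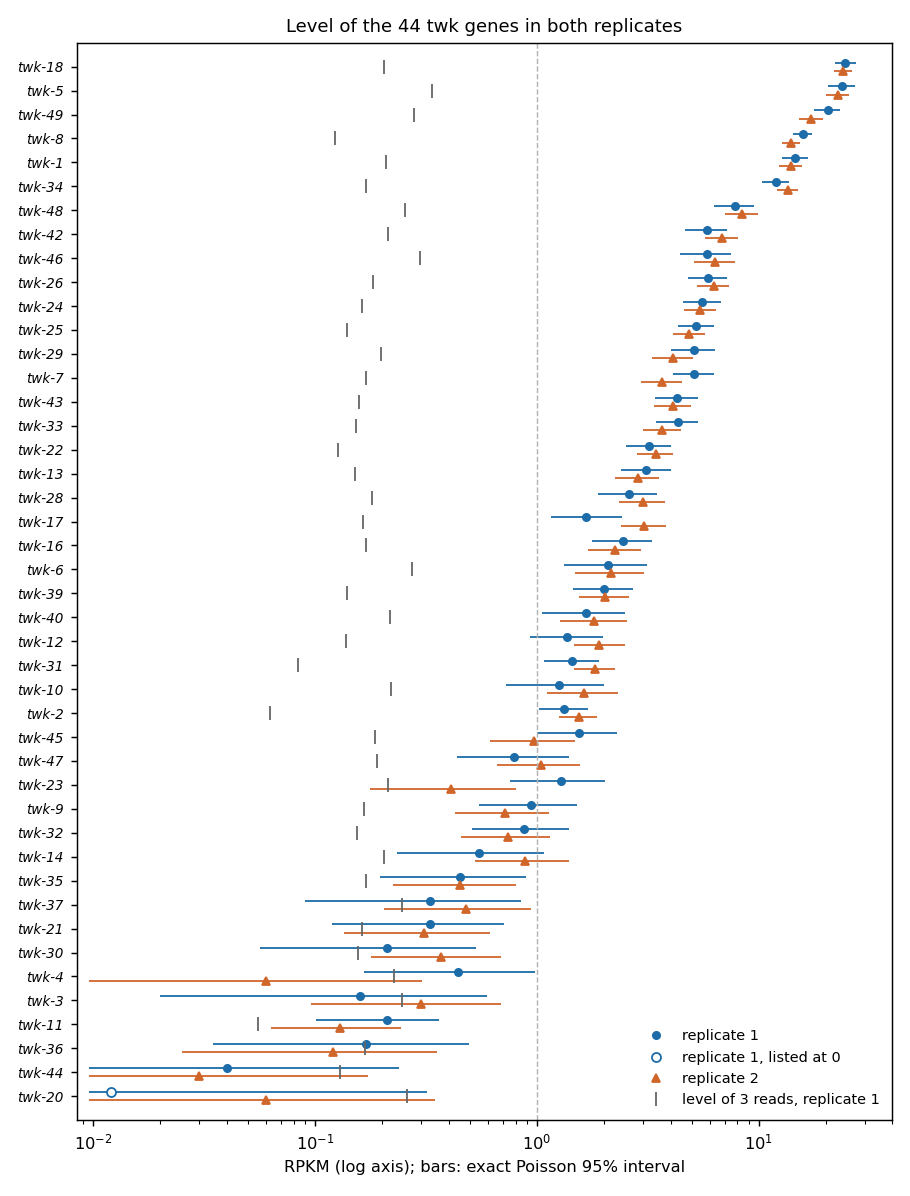
RPKM of the 44 twk genes on a log axis, ordered by mean, with circles for replicate 1, triangles for replicate 2 and bars for exact Poisson 95% intervals (cut at the left edge). The 6 genes at the top are all at or above 11.94 RPKM in both replicates, and no other gene is above 8.42 RPKM. The open circle marks twk-20, listed at 0 in replicate 1, and grey ticks mark the level of 3 reads in replicate 1.

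twk-18 was the highest member in both replicates. It encodes a channel of body wall muscle, and its gain-of-function alleles impair movement. It was at 24.6 RPKM in replicate 1 and at 23.9 RPKM in replicate 2, from 360 and 486 reads. The Poisson intervals were 22.1 to 27.3 RPKM in replicate 1 and 21.9 to 26.2 RPKM in replicate 2. By mean RPKM it nevertheless took rank 5126 among all 19874 genes. The gene lies on chromosome X from 8988128 to 8991975 (WBcel235, plus strand) and has 1 annotated coding form of 1386 bases.

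The next members were twk-5 and twk-49, both on chromosome II. twk-5 was at 23.6 RPKM in replicate 1 and at 22.7 RPKM in replicate 2. It has the shortest coding sequence of the family, 846 bases, and lies from 11483215 to 11485300 on the minus strand. twk-49 was at 20.4 RPKM in replicate 1 and at 17.2 RPKM in replicate 2, and lies from 6492785 to 6499167 on the minus strand. The replicates of these 3 highest genes did not overlap between neighbours in the order, but the Poisson intervals of twk-18 and twk-5 did. Those of twk-5 and twk-49 overlapped in replicate 1 and lay apart in replicate 2. The exons of twk-49 share 608 bases with T28D9.1, a gene on the opposite strand at 241 RPKM in replicate 1 and at 238 RPKM in replicate 2. None of those bases is in the coding part of twk-49, and how reads there were counted was not tested.

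The other 3 members above 10 RPKM were twk-8, twk-1 and twk-34. twk-8 on chromosome IV was at 15.7 RPKM in replicate 1 and at 13.95 RPKM in replicate 2. Per read number it stood close to twk-18, with 384 and 472 reads over its 2310 coding bases, so that the order by level and the order by reads differ. twk-1 on chromosome I was at 14.6 RPKM in replicate 1 and at 13.9 RPKM in replicate 2, and its replicates overlapped with those of twk-8. twk-34 on chromosome V was at 11.9 RPKM in replicate 1 and at 13.5 RPKM in replicate 2. The means of the 6 genes were 24.25 ± 0.45 RPKM for twk-18, 23.2 ± 0.69 for twk-5, 18.8 ± 2.29 for twk-49, 14.8 ± 1.26 for twk-8, 14.25 ± 0.47 for twk-1 and 12.7 ± 1.08 for twk-34 (SD, n = 2 each). These same 6 genes were the highest in each replicate taken alone. They held 55.9% of the summed twk RPKM in replicate 1 and 54.4% in replicate 2.

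A step in level followed below these 6 genes. Among 43 pairs of neighbours in the order, twk-34 and twk-48 were the 1 pair whose Poisson intervals lay apart in both replicates. The order was made from these same values, and such intervals are relatively narrower where reads are many, so this criterion favours the top. By ratio, the step from twk-36 at a mean of 0.145 RPKM to twk-44 at 0.035 RPKM was larger, but it rests on about 3 reads and 1 read in each replicate. twk-48 was at 7.80 RPKM in replicate 1 and at 8.42 RPKM in replicate 2, on chromosome III. Judged by the replicates alone, 15 of the 43 neighbouring pairs had ranges that did not overlap and 28 had ranges that did. With 2 values a gene, such a range is a narrow guide, and the place of most members in the order is not resolved beyond counting error.

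Besides twk-48, 5 members had a mean between 5 and 10 RPKM. twk-42 was at 5.83 RPKM in replicate 1 and at 6.80 RPKM in replicate 2. twk-46 was at 5.86 and 6.33 RPKM, and twk-26 at 5.90 and 6.26 RPKM, in replicates 1 and 2. The replicate ranges of these 3 genes overlapped, so their order is not resolved. twk-24 stood slightly lower at 5.56 RPKM in replicate 1 and at 5.45 RPKM in replicate 2. twk-25 was at 5.22 RPKM in replicate 1 and at 4.86 RPKM in replicate 2.

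A further 17 members had means of 1.26 to 4.61 RPKM, among them twk-7 and twk-40, which act in the motor circuit. twk-7, which restrains locomotion through motor neurons, was at 5.10 RPKM in replicate 1 and at 3.67 RPKM in replicate 2. twk-40, a brake on the excitability of motor circuit neurons, was at 1.67 RPKM in replicate 1 and at 1.8 RPKM in replicate 2, from 23 and 35 reads. The most even member of this range was twk-39, at 2.01 RPKM in replicate 1 and at 2.02 RPKM in replicate 2. By ratio the most uneven was twk-17, at 1.67 RPKM in replicate 1 and at 3.05 RPKM in replicate 2. At the lower end twk-45 was at 1.55 RPKM in replicate 1 and at 0.97 RPKM in replicate 2. The others of this range were twk-29, twk-43, twk-33, twk-22, twk-13, twk-28, twk-16, twk-6, twk-12, twk-31, twk-10 and twk-2. Of the coding bases of twk-28, 11.8% are also covered by exons of C52B9.10 on the opposite strand, which was at 1.66 RPKM in replicate 1 and at 2.10 RPKM in replicate 2.

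The remaining 15 members had a mean below 1 RPKM, and 10 of them still had more than 3 reads in both replicates. The highest were twk-47, at 0.79 and 1.04 RPKM, and twk-23, at 1.28 and 0.41 RPKM, in replicates 1 and 2. twk-9 followed at 0.94 RPKM in replicate 1 and at 0.72 RPKM in replicate 2. twk-32, twk-14, twk-35, twk-37, twk-21, twk-30 and twk-11 were lower and also above the floor in both. For twk-11, with 5163 coding bases the longest of the family, 11 reads in replicate 1 and 10 in replicate 2 gave only 0.21 and 0.13 RPKM.

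Signal at or under the floor in at least 1 replicate was found for 5 members. twk-44 had about 1 read in each replicate, at 0.04 and 0.03 RPKM, where 3 reads would be 0.129 RPKM in replicate 1 and 0.093 RPKM in replicate 2. twk-20 was listed at 0 in replicate 1 and had about 1 read in replicate 2, at 0.06 RPKM. twk-36 had about 3 reads in each replicate, and twk-3 about 2 reads in replicate 1 and 5 in replicate 2. twk-4 had about 6 reads in replicate 1 and 1 read in replicate 2. These genes were not detectable above the floor in both replicates at this depth, which does not show them to be silent. Of the coding bases of twk-4, 16.3% are shared with sym-2 on the same strand, which was at 21.7 RPKM in replicate 1 and at 22.6 RPKM in replicate 2. How reads in the shared bases were counted was not tested.

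The replicates were then compared member by member. Of the 44 members, 21 were higher in replicate 2, 22 were higher in replicate 1 and twk-35 was equal. Across the 44 genes, which are not independent replicates, Spearman's rho between the replicates was 0.982. On the log2(RPKM + 1) scale, which understates ratios of low genes, no member with a mean of at least 1 RPKM was beyond 2-fold, against 0.713% of all such genes. The median log2 ratio of replicate 2 to replicate 1 over those 29 members was 0.0048, beside -0.02 over all such genes, and the SD was 0.21 beside 0.25. With plain ratios and no limit on the level, twk-23 and twk-4 were beyond 2-fold among 43 members above 0 in both, against 8.97% of all such genes.

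**Figure D2:**
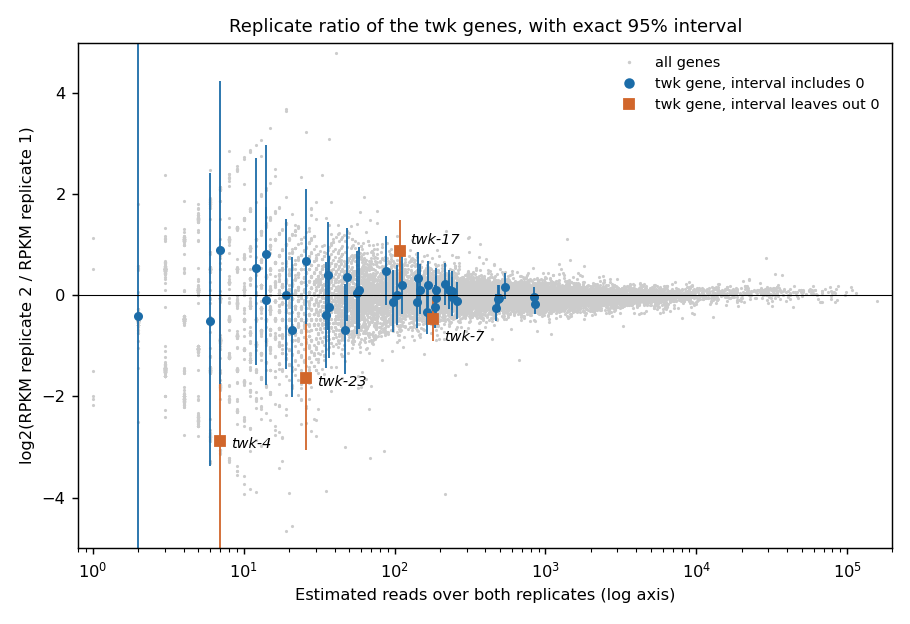
The log2 ratio of replicate 2 to replicate 1 (no pseudocount) against estimated reads over both replicates on a log axis, for 43 twk genes with exact 95% intervals (cut at the edges) and for all genes as grey dots. The 4 squares are the twk genes whose interval leaves out a log2 ratio of 0. The 40 other members, with twk-20 not drawn, have intervals that include it, and these are widest at few reads.

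For 4 members the exact interval of the ratio of replicate 2 to replicate 1, from the read numbers, left out 1. This share may be read against 14.2% of all genes with a coding length, and against 7.96% of genes whose reads lay between those of the lowest and highest twk gene. twk-17 was higher in replicate 2, at a ratio of 1.83 with an interval of 1.17 to 2.81, from 31 and 77 reads. At its longest form, 1731 bases, the estimates before rounding were 30.53 and 77.35, not whole within 0.1 read, so its read numbers are less certain. With its shortest form, 1497 bases, the interval was 1.17 to 3.04. twk-7 was lower in replicate 2, at a ratio of 0.72 with an interval of 0.53 to 0.976, from 90 reads in each replicate. twk-23 was at 1.28 RPKM in replicate 1 and at 0.41 RPKM in replicate 2, a ratio of 0.32 with an interval of 0.121 to 0.774, from 18 and 8 reads. These reads rest on its longest coding form, 1332 bases, at which the estimates before rounding were 18.004 and 8.001. Both were whole within 0.1 read. Only the longest and the shortest of its 3 coding forms were tried, so the length behind the deposited values is not settled. With the shortest of its coding forms, 252 bases, twk-23 would have 3 and 2 reads, and its interval of 0.0401 to 4.19 would hold 1. For twk-4 the ratio was 0.136 with an interval of 0.003 to 0.99. The 6 highest members all had intervals that include 1.

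Members were found on all 6 chromosomes. Chromosome V held 14 of them, or 31.8%, beside 23.8% of all coding genes of the table, and chromosome X held 10, or 22.7%, beside 13.9%. All 7 members on chromosome III had a mean of at least 1 RPKM, from 1.26 to 8.11 RPKM, where 86.4% of all coding genes of that chromosome did. The 5 members on chromosome I ranged from 0.29 to 14.25 RPKM, and 2 of them reached 1 RPKM, beside 84.3% of all coding genes there. On both chromosomes the median of the members, 2.02 RPKM on III and 0.915 RPKM on I, was below that of all coding genes, 14.6 RPKM on III and 13.5 RPKM on I. On chromosome X the range was the widest, with twk-18 at the top and twk-44 and twk-20 at the bottom of the whole family. Over the members, coding length and mean RPKM had a Spearman's rho of -0.15 (44 genes, which share both libraries).

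Several members that lie close together differed widely in level. Within 100 kb of another member lay 10 twk genes, in 4 groups. On chromosome X, twk-21 and twk-22 are direct neighbours on the same strand, 2272 bases apart. twk-21 was at 0.33 RPKM in replicate 1 and at 0.31 RPKM in replicate 2, from about 6 and 8 reads. Its Poisson intervals were 0.119 to 0.708 RPKM in replicate 1 and 0.135 to 0.616 RPKM in replicate 2. twk-22 was at 3.20 RPKM in replicate 1 and at 3.43 RPKM in replicate 2, a mean 10.4 times that of twk-21. With so few reads of twk-21, this ratio is imprecise. On chromosome V, twk-33, twk-42 and twk-36 follow each other on the same strand, with gaps of 12413 and 11034 bases and 1 coding gene in each gap. twk-33 was at 4.30 RPKM in replicate 1 and at 3.67 RPKM in replicate 2, and twk-42 was above it in both. The third gene, twk-36, was at 0.17 RPKM in replicate 1 and at 0.12 RPKM in replicate 2, from about 3 reads in each, which is the floor. Its replicates did not overlap with those of twk-33 and twk-42.

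The other 2 groups were spaced more widely. twk-24, twk-13 and twk-14 on chromosome V share a strand and are separated by 50.8 and 49.0 kb. twk-13 was at 3.11 RPKM in replicate 1 and at 2.85 RPKM in replicate 2, between twk-24 and twk-14. twk-14 was at 0.55 RPKM in replicate 1 and at 0.88 RPKM in replicate 2. twk-26 and twk-16 on chromosome X lie 26.3 kb apart on opposite strands, and twk-16 was the lower at 2.45 RPKM in replicate 1 and at 2.25 RPKM in replicate 2.

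**Figure D3:**
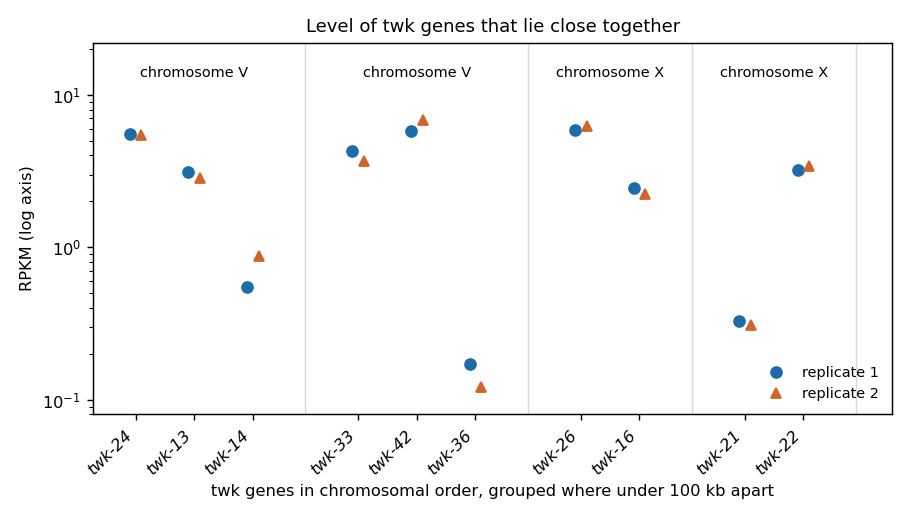
RPKM on a log axis of the 10 twk genes that lie within 100 kb of another, in chromosomal order and in 4 groups, with circles for replicate 1 and triangles for replicate 2. No replicate ranges overlap between genes of a group, and twk-21 at 0.33 and 0.31 RPKM lies below its neighbour twk-22 at 3.20 and 3.43 RPKM.

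Among the 70 potassium channel genes compared, the 6 high twk genes had the highest means. Tandem-pore channels with other names were at middling levels. egl-23, whose gain-of-function allele impairs egg laying, was at 5.64 RPKM in replicate 1 and at 6.04 RPKM in replicate 2. unc-58, known from alleles with abnormal movement, was at 4.05 RPKM in replicate 1 and at 4.12 RPKM in replicate 2. sup-9, a muscle channel, was at 2.68 RPKM in replicate 1 and at 2.62 RPKM in replicate 2. Of its known partners, sup-10 was at 6.74 RPKM in replicate 1 and at 6.70 RPKM in replicate 2, unc-93 at 2.37 and 1.93 RPKM, and sup-18, listed in the table as C02C2.5, at 3.12 and 3.43 RPKM.

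Of 16 voltage-gated channel genes, 13 had a mean of at least 1 RPKM, and their median was 2.19 RPKM. The highest were the Shaker-type gene shk-1, at 5.65 RPKM in replicate 1 and at 6.37 RPKM in replicate 2, and kvs-5 at 6.44 and 5.41 RPKM, followed by shw-1 at 4.93 and 4.47 RPKM. Among 4 calcium- or sodium-activated channel genes found by name, slo-2 was highest, at 9.80 RPKM in replicate 1 and at 10.06 RPKM in replicate 2. The list held 6 genes, but kcnl-1 and kcnl-2 were not found by name and are not among the 70. The large-conductance calcium-activated channel gene slo-1 was at 3 RPKM in replicate 1 and at 2.53 RPKM in replicate 2, and kcnl-4 at 2.21 and 2.67 RPKM. The 3 inward rectifier genes had a median of 1.63 RPKM. Their highest member, irk-3, was at 4.39 RPKM in replicate 1 and at 3.34 RPKM in replicate 2, ahead of irk-2 at 1.59 and 1.67 RPKM and irk-1 at 1.10 and 0.58 RPKM.

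The twk median of 2.07 RPKM was thus near the median of 2.46 RPKM over the 26 other potassium channel genes, while the twk range reached further in both directions. The 6 highest twk genes were above slo-2, the highest of those 26. Over these 70 channel genes, twk genes held 72.2% of the summed RPKM in replicate 1 and 71.3% in replicate 2. With 44 of the 70 genes, they made up most of the list to begin with. A longer list also tends to span a wider range and to hold more of the top places. For scale, neuron markers had a median of 28.0 RPKM, with the synaptotagmin gene snt-1 at 18.3 RPKM in replicate 1 and at 16.95 RPKM in replicate 2. Body wall muscle markers were spread from 2.51 to 937 RPKM around a median of 85.4 RPKM. Of these, unc-22, unc-89 and the muscle transcription factor gene hlh-1 had means of 2.51, 2.70 and 4.96 RPKM, below the 6 highest twk genes. However, unc-22 and unc-89 are very long, with 21477 and 24246 coding bases. They held 612 and 745 reads in replicate 1, more than any twk gene. How evenly reads covered such long genes was not tested. The muscle myosin gene unc-54 was at 137 RPKM in replicate 1 and at 132 RPKM in replicate 2.

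**Figure D4:**
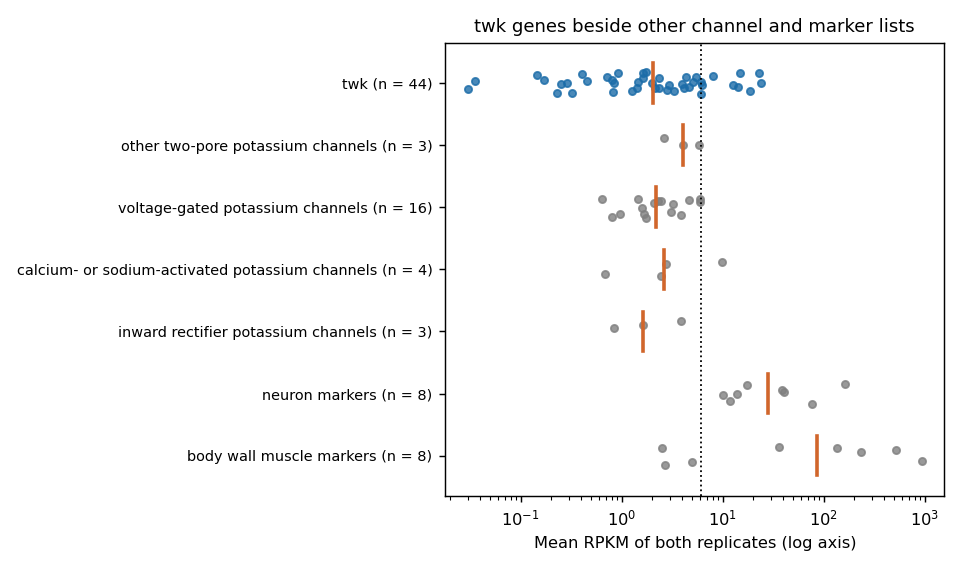
Mean RPKM of both replicates on a log axis for the twk genes (top), 4 other potassium channel lists and the neuron and body wall muscle markers, 1 point a gene, with short vertical bars for list medians and a dotted line at 6.17 RPKM, the median of all genes. The twk genes span 0.03 to 24.25 RPKM, and the 26 other channel genes lie between 0.64 and 9.93 RPKM.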

How the data were processed

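Libraries were prepared from total RNA with the TruSeq RNA V2 kit, per the labels' protocols. CASAVA 1.8.2 is named in the submitters' processing notes. Which aligner, counter, annotation and build were used is not given in the sources used here. Deposited values are RPKM by the authors, 1 column a replicate, per the file headers, so no count model was used. Commas used as digit separators were removed, and of 19990 rows 104 coordinate rows and 12 rows with repeated names were left out. Ensembl release 115 (WBcel235) gave coding lengths and positions; the longest coding form was used. This version of the kit does not mark strand, so reads of genes that overlap on opposite strands cannot be told apart. For an overlap on the same strand, as of twk-4 and sym-2, strand would not separate the reads.

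Depth was estimated from coding genes with 1 annotated coding form of at most 1500 bases. Library sizes were compared by the share of low values, up to 20 reads, at which RPKM times coding length gave whole reads. The smallest size with a share close to the best was found, and the size of highest share just above it was taken. Within 0.1 read, 88.2% of 4214 low values in replicate 1 and 88.2% of 3530 in replicate 2 were whole, where chance gives 20%. Ratio intervals are Clopper-Pearson and level intervals Poisson, at 95%. In data simulated for the replicate comparison with 17946 genes, depths of 9000000 and 16000000 reads were recovered as 8990000 and 16000000. With 1 group there was no test between groups and no p-value.

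The members and lists were chosen with earlier results of these data known. By rule, the text names the twk genes, the 3 highest of each other channel list and marker genes. Identity between twk proteins, also planned, was not computed. Alternatives were other limits, pseudocounts, scalings, coding lengths and single replicates. Scripts ran under Python 3.11.15 with scipy 1.17.1, pandas 2.3.3, matplotlib 3.10.9 and numpy 2.4.6.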

Additional observations from a re-analysis of the deposited data

How the results depend on the processing

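The number of twk genes at a mean RPKM of at least 1 stayed within 1.5 times of 29 under all alternatives run, from 23 at a limit of 2 RPKM to 34 at a limit of 0.5 RPKM. The twk median of 2.07 RPKM became 4.195 RPKM when members with a mean under 1 RPKM were left out, which follows from removing the low members, and it ranged from 1.84 to 2.09 RPKM in single replicates. No member was beyond 2-fold in the main comparison. With a limit of 1.5-fold, 1 member was beyond it (twk-17), and with plain ratios and no filter, an alternative chosen after seeing the data, 2 were. The median log2 ratio lay between -0.01 and 0.02 under all alternatives run. The share of twk RPKM held by the 3 highest genes was 33.8%, and 33.0% to 34.6% in single replicates. More than 3 reads in both replicates were found for 39 members, 37 with the shortest coding form and 32 at a limit of 10 reads. Depth limits the low members, since 28 of 44 had at least 20 reads in both replicates. The ratio interval left out 1 for 3 members instead of 4 when the shortest coding form was used, an alternative chosen after seeing the data, and the member lost was twk-23. At the longest form, the reads of twk-23 were whole within 0.1 read in both replicates. No paired analysis was possible because the 2 samples form 1 group.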

Other observations

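The whole-read steps were visible in the twk genes themselves. Of members with 1 annotated coding form and 1 to 20 estimated reads, 8 of 10 values in replicate 1 and 9 of 10 in replicate 2 were whole within 0.1 read. Of the 19 members with several coding forms, twk-9 has forms of the same length, 1707 bases. The others have less certain read numbers, because the form whose length the authors used is not given in the sources used here. For twk-23, the reads were whole at its longest form in both replicates.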
